A study of Mus musculus with 4 samples.

Results

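The 44 genes described here are cell cycle genes, of 32285 genes measured, taken by symbol and followed through immune classes of a mouse tumour. They fall into 27 mitotic genes, whose transcripts are most abundant in the G2 and M phases, and 17 S-phase genes, which serve DNA replication. All 44 are protein-coding and lie on 17 chromosomes, with at most 8 on any one of them. The members were taken by symbol and not by a cut on measured values, though earlier results of these data were known. Every count below covers all 44 unless a lower number is given.

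The cells came from B16-F10 tumours, grown from a transplantable mouse melanoma line. Each of the 4 groups was 1 library of live CD45+ cells, that is leukocytes, sorted from the tumours of 6 pooled mice. Control mice received dilution buffer into the tumour and IgG into the vein, and CD40 mice an antibody to CD40 into the tumour with intravenous IgG. PD1 mice received buffer into the tumour and an intravenous antibody to PD1, and combination mice both antibodies. Mice were dosed on day 8 and again on day 11, and their tumours were removed on day 14, so all groups were injected in the tumour and in the vein. CD40 is a costimulatory receptor of dendritic cells, macrophages and B cells, and PD1 restrains T cells after they have been activated. With 1 library per group there is no replicate, so no test was run and no p-value is given. Intervals are exact 95% intervals that cover counting error only. Because mice were pooled and cells of a library are not replicates, the spread between animals cannot be seen.

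A cell that enters the cycle first makes the DNA replication machinery. The Mcm2 to Mcm7 proteins form the replicative helicase that Cdc6 loads onto origins, Gins2 is a subunit of the GINS complex that activates it, Pcna is the sliding clamp, and Rrm1, Rrm2, Tyms, Tk1 and Dut supply or guard the nucleotide pool. Ccne1 and Ccne2 are E-type cyclins of S-phase entry, and Uhrf1 keeps DNA methylation in place behind the fork. Many of these genes are known targets of E2F factors. In G2 and M, Ccna2, Ccnb1 and Ccnb2 drive Cdk1, Aurka, Aurkb and Plk1 are mitotic kinases, Bub1 and Bub1b act in the spindle checkpoint, and Cdc20 and Ube2c work with the anaphase-promoting complex. Kif11, Kif20a, Kif23, Tpx2, Prc1 and Nusap1 build and organise the spindle, Cenpa, Cenpe and Cenpf act at the centromere, and Top2a, a topoisomerase, untangles chromosomes. Many mitotic genes are known to be held off outside G2 and M by the DREAM complex, which binds a promoter element called the cell cycle genes homology region, or CHR. Stmn1 and Hmgb2, and among the S-phase genes Dut and Pcna, are also made by cells that do not divide.

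The promoters of both kinds differ in the elements they carry, which is why 5 of them are shown. RefSeq promoters on GRCm38.p6, from 250 bases before to 50 after the start, were at hand for 36 of the 44 genes, 22 mitotic and 14 S-phase. Each stretch below holds 120 bases, 5′ to 3′ on the gene's own strand, with matches to any of the motifs in capitals on either strand. Mki67, the gene of the proliferation marker Ki-67, has CHR letters TTTGAA with their first base at 116 and at 98 bases before the start (chr7:135716380-135716499, minus strand). Cdc20 has TTTGAA at 18 bases before the start beside CCAAT boxes at 53 and 8 (chr4:118437344-118437463, minus strand). Top2a has TTCAAA, the CHR read on the other strand, at 23 bases and CCAAT boxes at 98, 78 and 58 (chr11:99024190-99024309, minus strand). Mcm5 has overlapping E2F matches at 153 and 149 bases and a CCAAT box at 77 (chr8:75109329-75109448, plus strand, from 180 to 61 bases before the start). Mcm6 has E2F matches at 110, 106 and 47 bases, the first pair overlapping, and CCAAT boxes at 57 and 14 (chr1:128359706-128359825, minus strand). Mcm6 was chosen after its motifs were seen. The stretches leave out part of each promoter. Over all 300 bases Mki67 also had 3 CCAAT matches, and Mcm5 had 1 CHR match and 3 CCAAT matches. Top2a had 2 CHR and 6 CCAAT matches there, and Cdc20 and Mcm6 had none beyond those shown.
Mki67: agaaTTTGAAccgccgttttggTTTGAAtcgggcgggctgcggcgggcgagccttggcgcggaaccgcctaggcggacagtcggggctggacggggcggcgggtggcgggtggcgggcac
Cdc20: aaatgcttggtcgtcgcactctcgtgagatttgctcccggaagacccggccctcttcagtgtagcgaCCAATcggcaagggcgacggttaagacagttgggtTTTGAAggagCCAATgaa
Top2a: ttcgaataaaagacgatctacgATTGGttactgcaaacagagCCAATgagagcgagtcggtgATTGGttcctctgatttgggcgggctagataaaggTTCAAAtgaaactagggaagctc
Mcm5: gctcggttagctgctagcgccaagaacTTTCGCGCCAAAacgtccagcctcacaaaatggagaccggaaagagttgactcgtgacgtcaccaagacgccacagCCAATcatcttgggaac
Mcm6: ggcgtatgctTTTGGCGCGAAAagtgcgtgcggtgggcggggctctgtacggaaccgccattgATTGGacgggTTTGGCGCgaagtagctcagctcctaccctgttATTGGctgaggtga

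CHR letters, TTTGAA or TTTAAA on either strand, stood in 20 of 22 mitotic promoters (90.9%), in 6 of 14 S-phase promoters (42.9%) and in 30.6% of the promoters of 27025 genes. The CCAAT box, the letters CCAAT on either strand, stood in 20 of 22 mitotic and 9 of 14 S-phase promoters against 41.1% of all. E2F letters, TTTGGCGC, TTTCCCGC, TTTCGCGC or TTTGCCGC on either strand, stood in 1 of 22 mitotic and 6 of 14 S-phase promoters against 2.61% of all. In these windows the mitotic genes thus mostly carried CHR and CCAAT letters, and E2F letters were mostly in S-phase genes. A match is a description of letters, not of a bound site.

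The 8 genes followed in every class are placed as follows on GRCm38, by the GENCODE vM21 gene model. The mitotic ones are Mki67 (ENSMUSG00000031004, chr7:135689784-135716361), Top2a (ENSMUSG00000020914, chr11:98992943-99024189), Ccnb1 (ENSMUSG00000041431, chr13:100778650-100786570) and Cdc20 (ENSMUSG00000006398, chr4:118432901-118437352), all on the minus strand. The S-phase ones are Mcm5 (ENSMUSG00000005410, chr8:75109569-75128439) and Rrm2 (ENSMUSG00000020649, chr12:24708241-24714146), on the plus strand, and Tyms (ENSMUSG00000025747, chr5:30058202-30073617) and Pcna (ENSMUSG00000027342, chr2:132249162-132253314), on the minus strand.

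The libraries held 8132 to 10158 barcodes and 117735875 to 164755549 unique molecular identifiers (UMIs, 1 per captured transcript), and library pairs shared 94 to 144 barcodes. After filters, which took out 111 to 257 predicted doublets per library among others, 7736 (control), 7757 (CD40), 9681 (PD1) and 9481 (combination) cells stayed. Classes were gated by UMIs of marker genes alone, and no cell cycle gene was among the markers. Cells called mitotic below were mostly deeper than others of their class, at a median of 27598 against 10884 UMIs in control CD8 T cells. Monocytes of the combination library were an exception, at 15631.5 against 16020. Whether this depth bears on which cells passed the gates was not tested. In the order control, CD40, PD1, combination, the gates held 600, 1734, 980 and 2888 CD8 T cells, 465, 364, 624 and 470 natural killer (NK) cells, 443, 120, 417 and 144 regulatory T (Treg) cells, 1608, 2007, 3087 and 2192 monocytes, and 1808, 1633, 1855 and 856 macrophages. The labels call the cell type melanoma, while the sorted cells carried leukocyte markers. Genes that set the gates were high in their class by design. Ncr1 stood at 721 to 1036 CPM, that is UMIs of the gene scaled to a common class total, in NK cells. Foxp3 was at 550 to 763 CPM in Treg cells and Cd8a at 851 to 1034 CPM in CD8 T cells. C1qa was at 2527 to 2824 CPM in macrophages and 24.3 to 47.3 CPM in monocytes. Of genes outside the gates, Klre1 was at 535 to 631 CPM in NK cells. Eomes varied there from 134 to 291 CPM and Prf1 from 637 to 1758 CPM. Treg cells had Il2ra at 408 to 448 CPM, Ctla4 at 1149 to 1326 CPM and Ikzf2 at 1076 to 1447 CPM. Among the 5 classes, median UMIs per cell differed between libraries most in NK cells, at 5623, 11245, 6126.5 and 10934.5, and in macrophages, at 20577, 35331, 18799 and 31804.5. The 2 pairs that set CD40 antibody against none, CD40 against control and combination against PD1, share no library.

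Of the 5 classes, NK cells showed the widest differences in both sums. Their 27 mitotic genes together stood at 922 CPM (889 to 957) in control, 3622 CPM (3568 to 3677) in CD40, 844 CPM (817 to 872) in PD1 and 3222 CPM (3176 to 3268) in combination. The 17 S-phase genes together stood at 522, 1362, 542 and 1167 CPM. Both libraries with CD40 antibody were thus high, and both without it low, for either group of genes. Other markers in the NK gate split the same libraries in reverse: Eomes, a transcription factor of NK and T cells, stood at 291, 134, 244 and 144 CPM, and Ccr7 and Fscn1, markers of mature dendritic cells, at 70.2, 4.25, 55.3 and 5.47 CPM and at 47.2, 0.637, 19.8 and 0.342 CPM. The dendritic cell markers Flt3, Xcr1, Clec9a and Cd209a summed to 5.18, 0, 1.59 and 0.171 CPM, and the part of these cells in the NK values was not tested. As a log2 ratio, the mitotic sum was 1.97 (1.92 to 2.03) higher in CD40 than in control and 1.93 (1.88 to 1.98) higher in combination than in PD1. The S-phase sum was 1.38 (1.30 to 1.46) and 1.11 (1.04 to 1.18) higher in the same pairs.

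**Figure D1:**
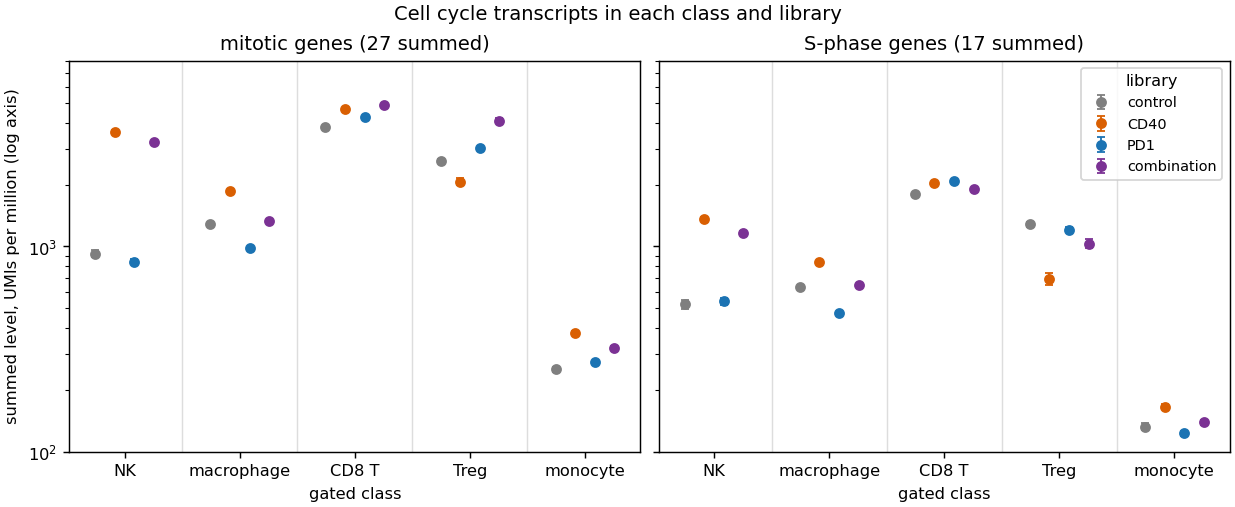
Summed level of the 27 mitotic genes (left) and the 17 S-phase genes (right) in 5 gated classes, in CPM on a log axis, with 1 point per library and exact Poisson intervals that cover counting error only. In NK cells the CD40 and combination libraries stand at 3622 and 3222 CPM of mitotic genes against 922 and 844 CPM in control and PD1, while in CD8 T cells all 4 libraries lie between 3830 and 4864 CPM.

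Of the mitotic genes in NK cells, Mki67 was at 25.6 CPM (20.2 to 31.9) in control, 255 CPM (241 to 270) in CD40, 32.1 CPM (27 to 37.8) in PD1 and 213 CPM (201 to 225) in combination. Top2a was at 51.8 CPM (44.1 to 60.4), 277 CPM (262 to 293), 46.9 CPM (40.7 to 53.7) and 206 CPM (195 to 218) in the same order. Both genes were high in both libraries with CD40 antibody, and the intervals of the high pair and the low pair did not overlap. Ccnb1, the cyclin of Cdk1 at mitotic entry, was at 5.18 CPM (2.96 to 8.41), 33.8 CPM (28.7 to 39.5), 4.55 CPM (2.78 to 7.03) and 29.2 CPM (25 to 33.9). Cdc20, the activator of the anaphase-promoting complex, was at 11.0 CPM (7.62 to 15.4), 36.3 CPM (31.1 to 42.2), 7.51 CPM (5.17 to 10.5) and 35.5 CPM (30.9 to 40.7). The same pair of libraries was high for both. Their log2 ratios were 2.71 (1.96 to 3.55) for Ccnb1 and 1.72 (1.19 to 2.30) for Cdc20 in CD40 against control, and 2.68 (2.01 to 3.43) and 2.24 (1.71 to 2.82) in combination against PD1.

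All 27 mitotic genes had a ratio whose interval lay above 0 in both of these NK pairs, beside 18% of all genes in the first and 14% in the second, where 22.7% and 21.4% lay below. Past 2-fold were 26 of 27 in each. Over all genes counted in NK cells, 6.07% were past 2-fold higher and 9.32% past 2-fold lower in CD40 against control, and 5.75% and 5.79% in combination against PD1. The median log2 ratio of the mitotic genes was 2.42 in the first pair, where it was -0.08 over all 11393 genes counted, and 2.68 in the second. In CD40 against control the largest ratios were those of the checkpoint kinase Bub1, at 3.60 (2.19 to 5.52) from 4 UMIs in control, Mki67, at 3.32 (2.99 to 3.66), and Aurka, at 3.13. In combination against PD1 they were those of the spindle motor Kif11, at 3.45 (2.81 to 4.16), Ccna2, at 3.19, and Plk1, at 3.17. Cenpa, the centromeric histone H3 variant, had the smallest ratio both times, at 0.82 (0.58 to 1.06) and 0.67 (0.50 to 0.85), and it was the member short of 2-fold. Hmgb2, a chromatin protein, followed with 1.58 and 1.45.

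The S-phase genes of NK cells were also higher in both libraries with CD40 antibody. Rrm2, the regulated subunit of ribonucleotide reductase, was at 15.9 CPM (11.7 to 21.0) in control, 117 CPM (108 to 127) in CD40, 14.8 CPM (11.4 to 18.9) in PD1 and 90.7 CPM (83.2 to 98.8) in combination. Tyms, which makes thymidylate, was at 18.8 CPM (14.2 to 24.3), 68.8 CPM (61.5 to 76.8), 13.9 CPM (10.6 to 17.8) and 57.1 CPM (51.1 to 63.5). For these enzymes of nucleotide supply the control and PD1 intervals overlapped each other and not the other pair's. Mcm5, a helicase subunit, was at 30.7 CPM (24.9 to 37.6), 85.8 CPM (77.7 to 94.6), 41.0 CPM (35.2 to 47.4) and 83.0 CPM (75.8 to 90.8). Pcna was at 62.8 CPM (54.2 to 72.2), 148 CPM (137 to 159), 67.8 CPM (60.3 to 76.0) and 117 CPM (108 to 126). Both were high in the same libraries, from a higher starting level.

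All 17 S-phase genes had intervals above 0 in both NK pairs, with 15 past 2-fold in the first pair, CD40 against control, and 12 in the second. Of all genes 18% and 14% had intervals above 0 in these pairs, and 6.07% and 5.75% were past 2-fold higher. Nucleotide enzymes led in both pairs: Rrm2 had 2.89 (2.46 to 3.34) and 2.62 (2.24 to 3.01), and Tk1, the thymidine kinase of the salvage pathway, 2.29 and 2.31. Cdc6 was among the largest 3 in the first pair with 2.49, and Tyms in the second with 2.04. Helicase subunits had the smallest ratios, with Mcm6 at 0.82 and Mcm4 at 1.01 in CD40 against control beside Gins2 at 0.98, and Mcm4 at 0.63, Mcm7 at 0.72 and Mcm6 at 0.75 in combination against PD1. Mcm6 was already at 88.0 CPM in control and 88.1 CPM in PD1, against 156 and 148 CPM in CD40 and combination.

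**Figure D2:**
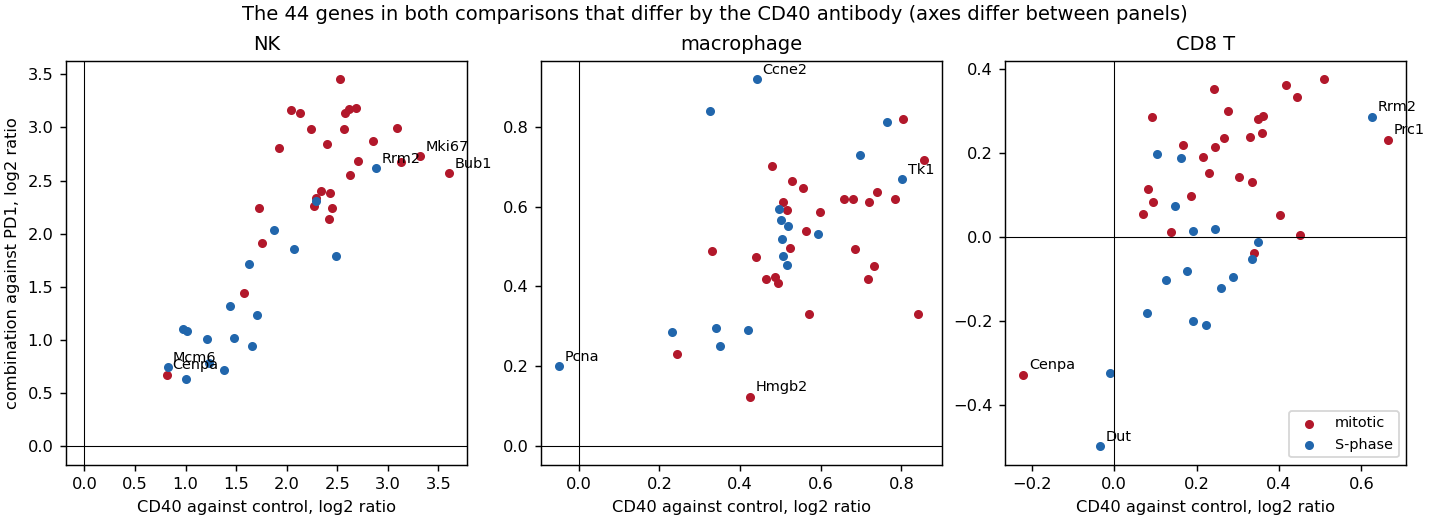
Log2 ratio of each of the 44 members against control in the CD40 library (horizontal) and against PD1 in the combination library (vertical), by gated class, mitotic and S-phase genes apart. In NK cells all members lie above 0 on both axes, up to 3.60 for Bub1 and 3.45 for Kif11, whereas in macrophages none is past 2-fold.

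NK values of PD1 and control were closer. In PD1 against control the mitotic sum differed by -0.13 (-0.20 to -0.06), with 1 interval above 0 and 6 below, and the S-phase sum by 0.05, with 2 above and 1 below. Over all genes 7.9% of intervals were above 0 and 8.81% below in that pair. Past 2-fold lower were 3 members: Bub1b at -1.39 from 13 UMIs in PD1, Kif11 at -1.29 and Ccnb2 at -1.13. Cenpa had the opposite sign, at 0.51 (0.26 to 0.76). In combination against CD40 the mitotic sum differed by -0.17 and the S-phase sum by -0.22, with 14 of 27 and 9 of 17 intervals below 0, beside 11.2% of all genes below and 7.71% above. Bub1b, at -0.51, Tpx2, at -0.46, Top2a, at -0.43, and Rrm2, at -0.37, were among the lowest, and Cenpa again had the opposite sign at 0.37. Of all genes 1.63% were past 2-fold higher and 3.46% lower in PD1 against control, and 2.28% and 2.03% in combination against CD40. In combination against control, which shares libraries with the other pairs, all 27 mitotic and 11 of 17 S-phase genes were past 2-fold higher, beside 5.43% of all genes higher and 8.86% lower, and all 44 intervals were above 0, beside 16.2% of all genes above and 24% below. Ratios ran from Aurka at 3.39 and Rrm2 at 2.52 down to Cenpa at 1.18 and Gins2 at 0.72.

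To count cells instead of transcripts, each cell was thinned to 4000 UMIs and called mitotic if it kept at least 5 UMIs of 25 mitotic genes, leaving out Stmn1 and Hmgb2. So called were 6 of 377 NK cells in control, or 1.59% (0.586 to 3.43), and 71 of 350 in CD40, or 20.3% (16.2 to 24.9). In PD1 they were 12 of 557, or 2.15% (1.12 to 3.73), and in combination 70 of 458, or 15.3% (12.1 to 18.9). The intervals of both libraries with CD40 antibody lay above those of both without it. In neutrophils, which no longer divide once mature, 0 of 18, 1 of 209, 0 of 21 and 1 of 730 cells passed. Without thinning the NK shares were 2.58%, 27.2%, 4.81% and 24.0%, and the neutrophil shares 0.508%, 1.09%, 0% and 0.265%, at median depths of 2135 to 4641 UMIs. Cells with at least 5 UMIs of 15 S-phase genes, without Dut and Pcna, made up 3.18%, 21.4%, 4.49% and 18.3% of thinned NK cells. Of the mitotic NK cells, 3, 51, 7 and 44 also passed this call, so the states share cells and are not separate phases. NK cells under 4000 UMIs were left out, 88, 14, 67 and 12 in number, and whether the greater depth of NK cells in both CD40 antibody libraries bears on which cells the gate took was not tested.

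The share of mitotic NK cells and the level inside them were read from largely the same genes, so the call sets a lower limit to that level and both are given as a description. CD40 stood to control as 12.7 to 1 in that share, as 0.827 to 1 in mitotic CPM of the cells called mitotic, and as 1.46 to 1 in the others. Combination stood to PD1 as 7.09, 1.57 and 1.35 to 1. With 6 and 12 mitotic cells in the lower libraries, levels inside those cells are imprecise. Of all Mki67 UMIs of NK cells, mitotic cells held 89.6%, 94.7%, 73.6% and 92.9%. Of Cenpa they held 33.1%, 80.8%, 20% and 66.6%, of Hmgb2 33.6%, 78.8%, 26.4% and 70.0%, and of Mcm6 9.80%, 48.4%, 14.5% and 32.3%. Cenpa, Hmgb2 and Mcm6, with small ratios between libraries, thus had most of their UMIs outside mitotic cells in control and PD1. Mki67 and Cenpa were among the genes that called the cells, Hmgb2 and Mcm6 were not. Over the 25 mitotic and 15 S-phase genes that called the states, there were 1.02, 1.88, 0.83 and 1.93 mitotic UMIs per S-phase UMI, so the balance of the gene groups also differed between the pairs of libraries.

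**Figure D3:**
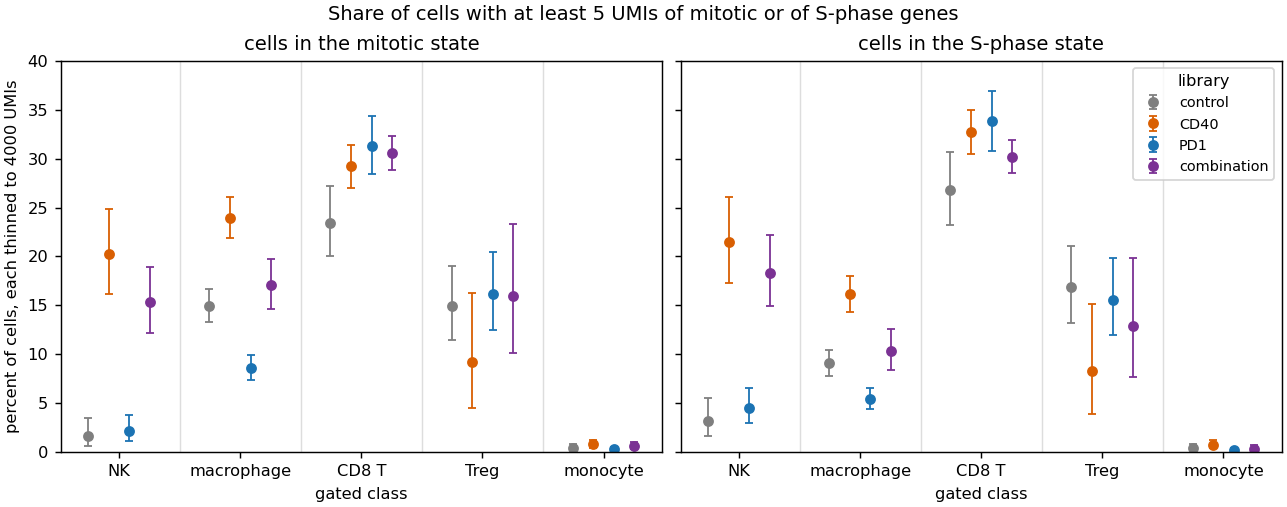
Share of cells of each class with at least 5 mitotic UMIs (left) or at least 5 S-phase UMIs (right) after thinning to 4000 UMIs per cell, in percent, with exact Clopper-Pearson intervals. NK cells reach 20.3% and 15.3% mitotic in CD40 and combination against 1.59% and 2.15% in control and PD1. A cell can count in both panels, and neutrophils are not drawn.

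Other cell cycle genes in NK cells, from a list of 71 outside the members, were mostly high in the same libraries. Of 24 further S-phase genes 20 were past 2-fold in the first pair and 18 in the second, and of 30 further mitotic genes 28 and 27. Of all genes 6.07% and 5.75% were past 2-fold higher in these pairs. The atypical repressors E2f8, at 4.07 and 3.33, and E2f7, at 3.87 in the first pair, and the clamp partner Pclaf, at 3.53 and 2.55, led the S-phase genes. Hmmr, at 3.86, Nek2, at 3.59, and Foxm1, a transcription factor of mitotic genes, at 3.14, led the mitotic ones in the second pair. The licensing factor Cdt1, at 0.24 and 0.25, and Pttg1, the securin, at -0.07 and 0.18, were close to 0. G1 genes had no common direction. Ccnd2, a D-type cyclin, was at 341, 251, 346 and 173 CPM, with ratios of -0.45 and -1.003, and Cdk6 had -0.13 and 0.04. Ccnd3, also a D-type cyclin, had 0.29 (0.20 to 0.39) and 0.05 (-0.03 to 0.13). Cdk4 had 0.22 (0.05 to 0.40) and 0.06 (-0.10 to 0.22). The 5 G1 genes listed together stood at 1017, 1047, 991 and 839 CPM. Among inhibitors, Cdkn2a, which encodes p16 and p19ARF, was at 0.647 CPM (2 UMIs), 12.5 CPM, 0.910 CPM (4 UMIs) and 7.69 CPM, and Cdkn1a, which encodes p21, at 31.1, 58.4, 41.4 and 46.6 CPM. Btg2, an antiproliferative gene of resting lymphocytes, was at 225, 177, 272 and 192 CPM.

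Macrophages had the same direction with CD40 antibody at a smaller size, and the opposite direction with PD1 antibody. The mitotic sum was at 1293 CPM in control, 1854 in CD40, 987 in PD1 and 1330 in combination, and the S-phase sum at 635, 843, 474 and 647 CPM. CD40 was highest, PD1 lowest, and control and combination close to each other. The mitotic sum was 0.52 (0.51 to 0.54) higher in CD40 than in control and 0.43 higher in combination than in PD1, and the S-phase sum 0.41 (0.39 to 0.43) and 0.45 higher. All 27 mitotic genes had intervals above 0 in both pairs, as had 16 and then 17 of the 17 S-phase genes, beside 21.7% and 21.1% of all genes above 0 and 27.3% and 20.2% below. No member was past 2-fold, against 4.94% and 4.29% of all genes higher and 4.67% and 3.81% lower.

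Mki67 in macrophages was at 75.2 CPM (72.6 to 77.9) in control, 102 CPM (99.5 to 105) in CD40, 55.0 CPM (52.8 to 57.4) in PD1 and 76.4 CPM (73.2 to 79.6) in combination. Top2a was at 62.8, 105, 48.1 and 74.7 CPM, and Ccnb1 at 21.0, 38.1, 16.96 and 27.9 CPM. Cdc20 was at 20.6, 31.1, 15.4 and 23.2 CPM. All 4 mitotic genes were highest in CD40 and lowest in PD1. Their ratios in CD40 against control were 0.44 (0.38 to 0.50) for Mki67, 0.74 (0.67 to 0.81) for Top2a, 0.86 (0.74 to 0.97) for Ccnb1 and 0.60 (0.48 to 0.71) for Cdc20. In combination against PD1 they were 0.47, 0.64, 0.72 and 0.59 in that order. Bub1b had the largest mitotic ratio of the second pair, 0.82, and Cenpa and Hmgb2 were among the smallest 3 in both pairs, with 0.24 and 0.42, and 0.23 and 0.12.

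Among S-phase genes of macrophages, Mcm5 was at 39.2, 59.1, 29.2 and 42.2 CPM, Rrm2 at 24.5, 41.7, 18.6 and 32.7 CPM, and Tyms at 25.9, 42.0, 18.4 and 30.6 CPM. All 3 followed the order of the mitotic genes. Pcna did not follow it: it was at 134 CPM (130 to 137), 129 CPM (127 to 132), 102 CPM (99.2 to 106) and 118 CPM (114 to 122), with a ratio of -0.05 (-0.10 to 0.00) in the first pair and 0.20 (0.13 to 0.27) in the second. The largest S-phase ratios were those of Tk1, at 0.80, Rrm2, at 0.76, and Tyms, at 0.70, in the former, and of Ccne2, at 0.92, Ccne1, at 0.84, and Rrm2, at 0.81, in the latter.

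In PD1 against control all 27 mitotic and all 17 S-phase genes of macrophages had intervals below 0, beside 26.6% of all genes below and 16.1% above. The sums were -0.39 and -0.42 and none was past 2-fold, against 2.55% of all genes higher and 3.8% lower. Kif11, at -0.65, and Ccne2, at -0.86, were the lowest of each group. In combination against CD40, a pair that shares no library with it, all 27 and 16 of 17 intervals were below 0, beside 20.7% of all genes below and 17.2% above. The sums were -0.48 and -0.38, with none past 2-fold against 2.43% of all genes past 2-fold higher and 3.15% lower. Plk1, at -0.78, Ube2c, at -0.71, and the methylation factor Uhrf1, at -0.64, were among the lowest there. Combination and control stood within 0.04 and 0.03 of each other in the mitotic and S-phase sums, with 16 of 44 intervals above 0 and 7 below, beside 20.1% and 28.1% of all genes, and no member past 2-fold beside 4.81% of all genes higher and 6.11% lower, and these ratios share libraries with the pairs above.

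**Figure D4:**
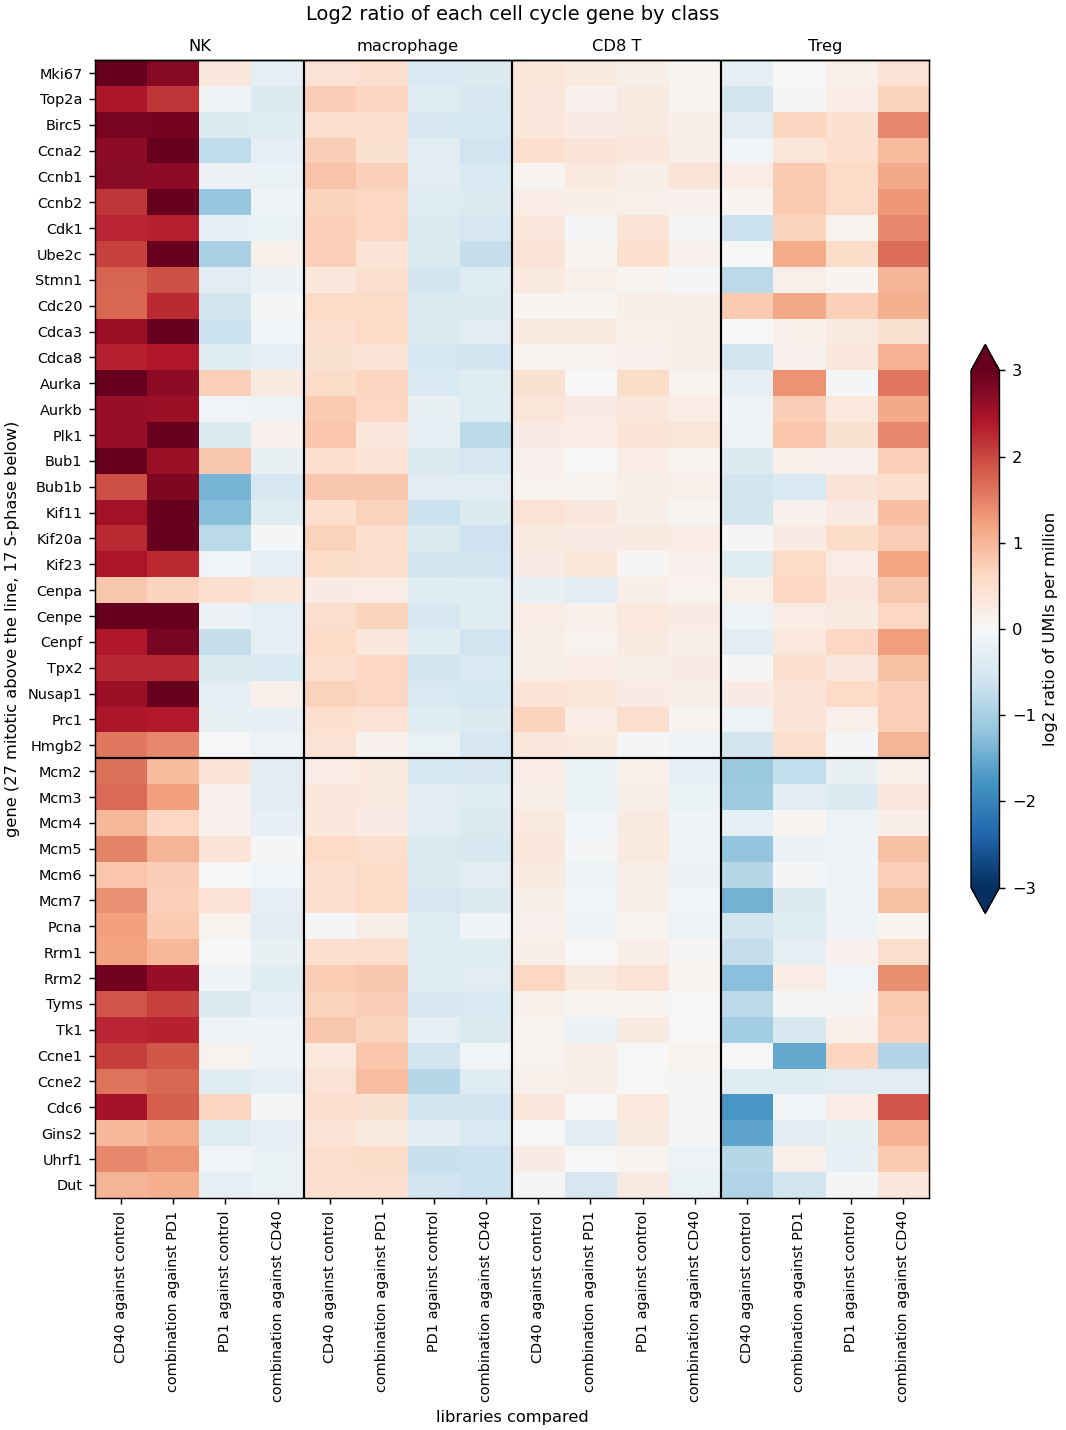
Log2 ratios of the 44 members, 1 row per gene in mitotic and S-phase blocks, in 4 comparisons within CD8 T, NK, Treg and macrophage classes; white marks 0. NK cells show the strongest colour with CD40 antibody, and macrophages a uniform weaker one that turns to the other sign with PD1 antibody, where all 44 members lie below 0 in PD1 against control.

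Mitotic cells were 266 of 1782 thinned macrophages in control, or 14.9% (13.3 to 16.7), 390 of 1627 in CD40, or 24.0% (21.9 to 26.1), 156 of 1827 in PD1, or 8.54% (7.30 to 9.91), and 145 of 851 in combination, or 17.04% (14.6 to 19.7). The CD40 interval lay above the other 3 and the PD1 interval below them, while those of control and combination overlapped. Without thinning the shares were 30.3%, 53.4%, 19.7% and 41.8%. Cells in the S-phase state made up 9.03%, 16.1%, 5.36% and 10.3%, and 73, 133, 43 and 49 cells were in both states. The share of mitotic cells stood as 1.61 to 1 in CD40 against control and 2.00 to 1 in the other CD40 antibody pair. Mitotic CPM stood as 1.06 and 0.861 to 1 inside those cells, and as 1.44 and 1.29 to 1 in the other macrophages. Over the 25 and 15 genes that called the states, mitotic UMIs per S-phase UMI were nearly level, at 1.89, 1.98, 1.88 and 1.88. The balance of both gene groups in macrophages thus differed little where their sums did.

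Melanoma markers were read in the same cells. Pmel, Dct, Tyrp1 and Mlana together stood at 16.2, 12.7, 15.9 and 14.3 CPM in macrophages, from which the gate had already left out every cell with more than 4 UMIs of them. In mitotic macrophages they were at 17.3 CPM against 15.9 CPM in the others in control, 14.1 against 12.0 in CD40, 16.9 against 15.8 in PD1 and 13.1 against 14.6 in combination. Cells within 2-fold of the border between monocyte and macrophage markers numbered 262, 101, 321 and 77 of the macrophages, and 316, 102, 428 and 113 of the monocytes. The part of these in the differences between libraries was not tested.

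Of the further cell cycle genes in macrophages, 21 of 24 S-phase and 29 of 30 mitotic genes had intervals above 0 in CD40 against control. In the other CD40 antibody pair 21 and 26 had them, beside 21.7% and 21.1% of all genes in these pairs. In turn 21 and 24 had intervals below 0 in PD1 against control, beside 26.6% of all genes. Cdkn1a ran the other way, at 318, 210, 397 and 273 CPM, with ratios of -0.60 in CD40 against control and 0.32 in PD1 against control. Btg2 did likewise, at 42.0, 22.4, 58.2 and 28.5 CPM, and so did Ccnd2, at 47.7, 28.8, 52.6 and 36.1 CPM. Ccnd1, another D-type cyclin, was at 143, 173, 138 and 168 CPM. The libraries highest in mitotic genes were thus low in the inhibitors Cdkn1a and Btg2, and the reverse.

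CD8 T cells had the highest mitotic and S-phase sums of the 5 classes in every library. Their mitotic sum was 3830, 4691, 4295 and 4864 CPM and their S-phase sum 1801, 2047, 2091 and 1909 CPM. The mitotic sum was 0.29 higher in CD40 than in control and 0.18 higher in combination than in PD1, with 21 intervals above 0 and 1 below in each. Over all genes 18.6% and 25.7% of intervals were above 0 in these pairs and 20.2% and 19.7% below. The S-phase sum was 0.19 higher in the first pair, with 12 of 17 intervals above 0, and -0.13 in the second, with 3 above and 9 below. No member was past 2-fold, against 3.06% and 4.21% of all genes higher and 6.86% and 4.8% lower. With equal weight for every cell the first mitotic sum was 0.51 and the first S-phase sum 0.33, and with a stricter gate the latter was 0.12. Without Dut and Pcna the second S-phase sum was -0.037. Mki67 taken alone was higher in Treg cells than in CD8 T cells in the control and PD1 libraries.

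Mki67 in CD8 T cells was at 201 CPM (192 to 211) in control, 259 CPM (253 to 265) in CD40, 226 CPM (219 to 232) in PD1 and 276 CPM (271 to 280) in combination. Top2a was at 252, 318, 304 and 333 CPM, and Ccnb1 at 50.4, 53.7, 58.1 and 70.8 CPM. Cdc20 was at 59.0, 61.9, 68.0 and 70.7 CPM. Control was the lowest library and combination the highest for all 4. Cenpa ran against its group, at 263, 225, 304 and 242 CPM, with ratios of -0.22 (-0.29 to -0.15) in the first pair and -0.33 (-0.37 to -0.28) in the second. The largest mitotic ratios were those of Prc1, at 0.66, and Ccna2, at 0.51, in the first pair, and of Ccna2, at 0.38, and Nusap1, at 0.36, in the second.

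Among the S-phase genes of CD8 T cells, Rrm2 was at 119 CPM (112 to 126) in control, 184 CPM (179 to 189) in CD40, 159 CPM (154 to 165) in PD1 and 195 CPM (191 to 198) in combination. Mcm5 was at 97.2, 123, 118 and 114 CPM, Tyms at 112, 124, 116 and 123 CPM, and Pcna at 164, 179, 172 and 160 CPM. Rrm2 thus had the order of Mki67 and Top2a. Tyms and Pcna were close in all libraries, while Mcm5 was lowest in control and highest in CD40. Rrm2 had the largest S-phase ratio in CD40 against control, 0.63 (0.53 to 0.72), and was opposite to its group in combination against PD1, at 0.29 (0.23 to 0.35). The lowest in the second pair were Dut, at -0.50, Gins2, at -0.32, and Mcm2, at -0.21. In PD1 against control 23 of 27 mitotic and 12 of 17 S-phase intervals were above 0, with sums of 0.17 and 0.22, beside 14.2% of all genes above 0 and 19.7% below, and none past 2-fold, beside 2.44% higher and 5.29% lower. In combination against CD40 the sums were 0.05 and -0.10, with 22 of 44 intervals above 0 and 11 below, beside 16.6% and 14.7% of all genes, and Ccnb1 had the largest ratio, 0.40, with none past 2-fold beside 2.63% of all genes higher and 2.57% lower. In combination against control 26 of 27 mitotic and 7 of 17 S-phase intervals were above 0, beside 21.9% of all genes above and 24.1% below, with Prc1 at 0.76 and Rrm2 at 0.71 the largest and none past 2-fold, beside 3.65% of all genes higher and 8.28% lower.

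Thinned CD8 T cells were mitotic in 23.4% (20.004 to 27.2; 132 of 563) in control, 29.2% (27.1 to 31.4; 494 of 1691) in CD40, 31.3% (28.4 to 34.4; 300 of 958) in PD1 and 30.6% (28.9 to 32.3; 861 of 2817) in combination. The control library was lower than PD1 and combination, whose intervals overlapped each other and that of CD40. Without thinning the shares were 39.3%, 43.6%, 53.3% and 45.2%. In the CD40 library the unthinned share was below the 53.4% of macrophages, at median depths of 13097.5 and 35331 UMIs. At equal depth the order was the reverse, 29.2% against 24.0%. Over the same 25 and 15 genes, mitotic UMIs per S-phase UMI were 1.79, 1.80, 1.86 and 2.10. Beyond the members, Cdkn1a was at 45.1, 76.5, 73.2 and 156 CPM, with ratios of 0.76, 1.09, 0.70 and 1.03 in CD40 against control, combination against PD1, PD1 against control and combination against CD40. The phosphatase gene Cdc25b had 0.92 and 1.00 with CD40 antibody, Ccnd3 0.39 and 0.61, and Cdk6 -0.42 and -0.71. In CD8 T cells the inhibitor Cdkn1a was thus highest in the library with the highest mitotic sum, unlike in macrophages.

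Treg cells split the S-phase genes from the mitotic ones. The S-phase sum was at 1282, 696, 1207 and 1031 CPM and the mitotic sum at 2617, 2066, 3001 and 4105 CPM. CD40 was the lowest library for both, and combination the highest for mitotic genes only. In CD40 against control all 17 S-phase ratios were below 0, 14 with their interval, and 8 were past 2-fold lower, beside 5.07% of all genes lower and 3.51% higher. The sum differed by -0.88. Thinned Treg cells in the S-phase state were 62 of 368 in control, or 16.8% (13.2 to 21.1), and 9 of 109 in CD40, or 8.26% (3.85 to 15.1). In PD1 they were 54 of 347, or 15.6% (11.9 to 19.8), and in combination 17 of 132, or 12.9% (7.68 to 19.8). These intervals of shares overlapped each other, and the CD40 share rests on few cells. Of the mitotic genes 7 intervals lay below 0 and 1 above, none past 2-fold. Over all genes 10.2% of intervals were below 0 and 8.76% above. In combination against PD1 the mitotic sum was 0.45 higher, with 17 of 27 intervals above 0 and 3 members past 2-fold higher, beside 2.56% of all genes past 2-fold higher and 8.29% with the interval above 0. The S-phase sum differed by -0.23 there, with 6 intervals below 0 and Ccne1 past 2-fold lower at -1.54, beside 12.3% and 5.01% of all genes. Only 120 and 144 Treg cells stood behind the CD40 and combination values, against 443 and 417. With equal weight for every cell the S-phase sum differed by -0.41 in CD40 against control and by -0.0023 in combination against PD1, where a stricter gate gave -0.47, and without Stmn1 and Hmgb2 the mitotic sum differed by -0.18 in the former.

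Mcm5 in Treg cells was at 80.4 CPM (72.1 to 89.4) in control, 35.2 CPM (25 to 48.1) in CD40, 73.4 CPM (65.0 to 82.6) in PD1 and 64.6 CPM (52.0 to 79.3) in combination. Rrm2 was at 102 CPM (92.1 to 112), 42.4 CPM (31.2 to 56.4), 95.4 CPM (85.8 to 106) and 111 CPM (94.7 to 130). Tyms was at 76.6, 44.2, 78.7 and 75.9 CPM. For these 3 genes the CD40 library alone was low. Pcna was at 113, 77.6, 104 and 80.9 CPM, low in both libraries with CD40 antibody. In CD40 against control the ratios were -1.19 (-1.71 to -0.71) for Mcm5, -1.26 (-1.73 to -0.82) for Rrm2, -0.79 (-1.26 to -0.36) for Tyms and -0.54 (-0.89 to -0.21) for Pcna. Gins2, at -1.57, and Mcm7, at -1.43, were lower still.

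The mitotic genes of Treg cells had more than 1 order of libraries. Mki67 was at 233 CPM (219 to 248) in control, 195 CPM (170 to 223) in CD40, 260 CPM (244 to 277) in PD1 and 261 CPM (235 to 289) in combination. Top2a was at 208, 143, 241 and 231 CPM. Both were lowest in CD40 and about level in PD1 and combination. Ccnb1 was at 28.5 CPM (23.6 to 34.0), 33.4 CPM (23.5 to 46.0), 42.9 CPM (36.6 to 50.1) and 73.8 CPM (60.3 to 89.4). Cdc20 was at 23.0 CPM (18.7 to 28.1), 39.7 CPM (28.8 to 53.3), 37.6 CPM (31.7 to 44.3) and 83.0 CPM (68.7 to 99.5). Ube2c, the ubiquitin-conjugating enzyme that acts with Cdc20, was at 98.7, 98.3, 145 and 315 CPM. These 3 were highest in combination. In combination against PD1 the members past 2-fold were Aurka, at 1.35 (0.83 to 1.88), Cdc20, at 1.14 (0.78 to 1.51), and Ube2c, at 1.11 (0.93 to 1.30), while Mki67 and Top2a stood at 0.00 (-0.17 to 0.18) and -0.06 (-0.25 to 0.12). Cdc20 was also opposite to its group in CD40 against control, at 0.79 (0.24 to 1.32).

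PD1 antibody came with higher mitotic values in Treg cells. In PD1 against control 15 of 27 mitotic intervals were above 0 and none below, with a sum of 0.20, beside 8.19% of all genes above 0 and 7.75% below. None was past 2-fold, beside 2.04% of all genes higher and 4.37% lower. In combination against CD40 it was 23 of 27, beside 6.88% of all genes above 0 and 8.06% below, with a sum of 0.99 and 14 past 2-fold higher, beside 4.18% of all genes higher and 4.76% lower. Ube2c, at 1.68, Aurka, at 1.61, and Plk1, at 1.45, led the latter. The S-phase sums were -0.09 and 0.57 in the same pairs. Over the same 25 and 15 genes, mitotic UMIs per S-phase UMI were 1.44 to 1.56 by the interval in control, 2.51 in CD40, 2.02 in PD1 and 3.12 in combination. In combination against control 8 mitotic genes were past 2-fold higher, led by Cdc20 at 1.85 and Ube2c at 1.67, beside 2.93% of all genes higher and 7.08% lower, and 5 of 17 S-phase intervals were below 0, beside 14.4% of all genes below and 10.6% above. Among the 5 classes the combination Treg cells had the highest such ratio.

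Mitotic Treg cells after thinning were 55 of 368, or 14.9% (11.5 to 19), 10 of 109, or 9.17% (4.49 to 16.2), 56 of 347, or 16.1% (12.4 to 20.4), and 21 of 132, or 15.9% (10.1 to 23.3). All 4 intervals overlapped, so no difference in this share was detectable with these numbers of cells. The unthinned shares were 20.3%, 16.7%, 22.1% and 23.6%. Combination stood to PD1 as 0.986 to 1 in the share and as 1.37 to 1 in mitotic CPM inside mitotic cells. Beyond the members, Ccnd1 was at 37.0 CPM (156 UMIs) in control and 23.6 CPM (89 UMIs) in PD1, with no UMI in CD40 or combination, ratios of at most -3.77 and -3.47 against a floor of 3 counts per library. The dendritic cell markers Flt3, Xcr1, Clec9a and Cd209a in the Treg gate summed to 60.01, 0.902, 13.8 and 0 CPM, highest in the same libraries as Ccnd1. Ccr7, at 122, 88.4, 23.8 and 19.9 CPM, and Fscn1, at 48.2, 107, 0.795 and 1.42 CPM, did not follow that split. The part of dendritic cells in the Ccnd1 value was not tested. Cdkn1a was at 61.4, 137, 78.2 and 131 CPM, high in both libraries with CD40 antibody.

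Monocytes were the least proliferative of the 5 classes. Their mitotic sum was 252, 380, 272 and 321 CPM, of which Hmgb2 alone made up 163, 255, 178 and 216 CPM. Mki67 was at 6.29 CPM (5.21 to 7.52), 8.03 CPM (7.06 to 9.10), 5.30 CPM (4.59 to 6.10) and 5.73 CPM (4.98 to 6.57). Top2a was at 5.92, 7.39, 6.46 and 4.82 CPM. These markers were at low levels in all libraries, and mitotic cells made up 0.383%, 0.753%, 0.265% and 0.554% of thinned monocytes and 1.93%, 4.78%, 1.36% and 4.38% of unthinned ones. The neutrophil shares beside them rest on 1 of 209 and 1 of 730 cells and on none in the other libraries, too few to tell these monocyte shares from background.

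A few mitotic genes of monocytes went apart from Mki67. Bub1b was at 1.94, 7.71, 2.58 and 6.72 CPM, Ccnb2 at 1.26, 5.09, 2.15 and 4.99 CPM, and Ube2c at 3.51, 10.0, 4.42 and 9.40 CPM. All 3 were high in both libraries with CD40 antibody, with ratios of 1.99 (1.49 to 2.53), 2.02 (1.39 to 2.70) and 1.51 (1.13 to 1.91) in CD40 against control and 1.38 (1.03 to 1.74), 1.21 (0.82 to 1.61) and 1.09 (0.82 to 1.37) in combination against PD1. Past 2-fold higher were 7 of 27 mitotic genes in the first pair and 3 in the second, beside 4.42% and 3.78% of all genes. Bub1, at -1.10 in the second pair, was the member past 2-fold lower, beside 3.99% of all genes lower in the first pair and 4.19% in the second. Ccnb1 was at 0.576, 1.55, 0.915 and 0.799 CPM and Cdc20 at 0.734, 1.30, 1.02 and 1.30 CPM, each from 48 UMIs or fewer. Of the S-phase genes, Mcm5 was at 5.14, 9.88, 4.68 and 7.66 CPM, Rrm2 at 1.89, 3.21, 2.32 and 2.45 CPM, Tyms at 2.62, 5.18, 3.63 and 2.81 CPM and Pcna at 50.6, 50.3, 44.7 and 48.9 CPM. Mcm5 had ratios of 0.94 (0.61 to 1.29) and 0.71 (0.43 to 0.99). The S-phase sum was 0.33 higher in CD40 than in control, with 12 of 17 intervals above 0, and 0.18 higher in combination than in PD1, with 7. Of the mitotic genes 10 intervals were above 0 and 1 below in the first pair, and 9 and 4 in the second. Over all genes 23.8% and 21.6% of intervals were above 0 in these pairs and 19.6% and 20.3% below, so the mitotic counts of monocytes stand nearer to all genes than those of NK cells or macrophages. With a stricter gate the first was 0.17, and without Dut and Pcna 0.54; the mitotic sum, 0.59 and 0.24 higher in these pairs, was 0.43 and 0.11 without Stmn1 and Hmgb2, and 0.37 in the second with the stricter gate. In PD1 against control 5 of 44 intervals were above 0 and 4 below, beside 15.1% and 20.8% of all genes, and no member was past 2-fold, beside 2.76% higher and 3.17% lower. There were 23 of 44 below 0 and 1 above in combination against CD40, beside 24.2% and 13.6%, and Bub1 alone was past 2-fold, at -1.09, beside 2.35% higher and 3.47% lower. In combination against control the same Ccnb2, Bub1b and Ube2c were past 2-fold, at 1.99, 1.79 and 1.42, and 12 of 44 intervals were above 0 and 3 below, beside 21.8% and 26.3% of all genes in the interval count and 4.38% of all genes higher and 5.76% lower.

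The classes that made up the mitotic cells of a library also differed between libraries. Of 677, 1151, 740 and 1316 mitotic cells in all, CD8 T cells were 19.5% in control, 42.9% in CD40, 40.5% in PD1 and 65.4% in combination. Macrophages were 39.3%, 33.9%, 21.1% and 11.0%. NK cells were 0.886%, 6.17%, 1.62% and 5.32%, and Treg cells 8.12%, 0.869%, 7.57% and 1.60%. Among gated cells the leading mitotic class was thus the macrophage in control and the CD8 T cell in the other 3 libraries. These shares follow both how often a class divides and how many of its cells were sorted. Cells that no gate took were 31.3%, 14.8%, 28.1% and 15.7% of the mitotic cells. Their class was not resolved, and in control, CD40 and PD1 they are numerous enough to change which class leads.

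**Figure D5:**
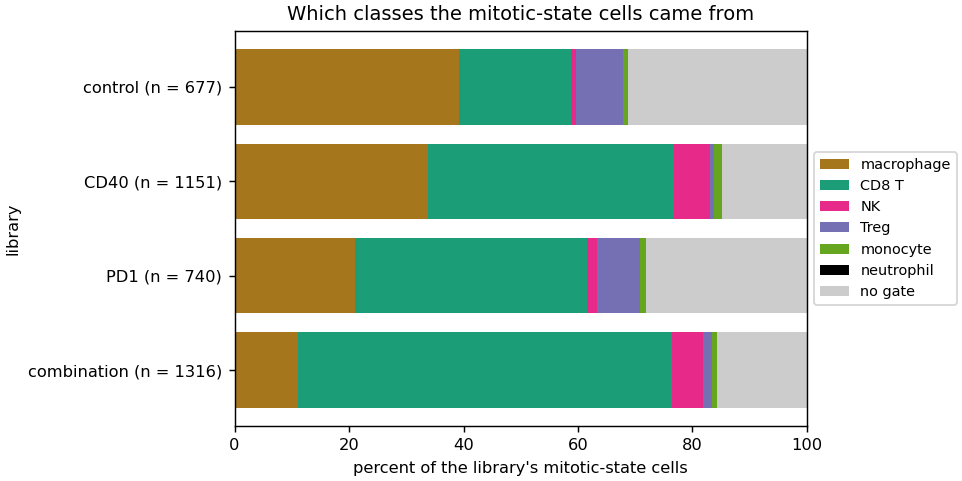
Makeup of the cells called mitotic in each library after thinning, as a percentage of all mitotic cells of that library, by gated class and with cells of no gate as their own part. CD8 T cells run from 19.5% in control to 65.4% in combination, and macrophages from 39.3% to 11.0%.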

How the data were processed

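After mashing and red cell lysis, living CD45+ cells were sorted with Fc receptors blocked and made into 10x 5′ libraries, per the labels' protocols. Per the submitters' processing notes, the authors used Cell Ranger 7.0.0 with GRCm38. The deposited tables hold unnormalized counts of UMIs for each barcode. Which annotation release was used and whether intronic reads were counted is not given in the sources used here, and intron counting would favour long genes.

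The 44 members and all gene lists were chosen with earlier results of these data known. Barcodes with 300 genes or more and no more than 10% mitochondrial UMIs were kept, and cells with a Scrublet score of 0.25 or more (scanpy 1.11.5) were removed as doublets. Gates required 3 UMIs of a lymphocyte class's own markers (Cd3 genes with Cd8a and Cd8b1 for CD8 T cells, Cd3 genes with at least 1 UMI of Foxp3 for Treg cells, Ncr1 and Klrb1c with at most 2 UMIs of Cd3 genes for NK cells). Monocytes and macrophages required 20 UMIs of shared phagocyte markers and were parted by their own. Cells above set limits of another class's UMIs were left out. The limits were 9 for phagocyte markers in lymphocytes, 19 for S100a8 and S100a9 in phagocytes, and at most 2 for most other lists. Lymphocyte gates set no limit on Flt3, Xcr1, Clec9a, Cd209a, Ccr7 or Fscn1. The CD8 T and Treg gates set none on Ncr1 and Klrb1c. A gate that asks for UMIs takes fewer shallow cells.

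UMIs of a class were summed per library and divided by the class total to give CPM, with exact Poisson intervals and, for log2 ratios, exact conditional binomial ones. Counts below 3 were raised to 3, which makes the ratio a bound. Genes needed 10 UMIs over a pair. The text names 8 genes in every class, up to 3 members per group with the largest and smallest ratios among those that reach 30 UMIs in either library, and members opposite to their group with an interval that leaves out 0; other genes were named for their level or a value that stands out, after values were seen. CPM is a share, so a gene that takes more of a class's UMIs lowers the others. Thinning drew 4000 UMIs per cell without replacement. Log2 ratios, their intervals and the 2-fold count were tested on simulated counts for the NK, Treg and macrophage classes. Gates, doublet removal, thinning and the calls of cell states were not tested in this way. Alternatives were doublets kept, a stricter gate, equal weight for cells, median-ratio scaling, 4 genes left out, a 5% mitochondrial limit, no count minimum, 2000 UMIs and 8 UMIs. Scripts ran in Python 3.11.15 with scipy 1.17.1, pandas 2.3.3, matplotlib 3.10.9 and numpy 2.4.6. Promoters came from RefSeq on GRCm38.p6 and gene positions from GENCODE vM21.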

Additional observations from a re-analysis of the deposited data

Results flagged for a closer look

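Several sums had opposite signs with the same antibody in pairs that share no library; none of these differences was tested. The summed mitotic genes of Treg cells stood at -0.34 in the CD40 library against control and 0.45 in the combination library against PD1, as log2 ratios. The summed S-phase genes of CD8 T cells stood at 0.19 and -0.13 in the same pairs. With PD1 antibody, that is PD1 against control and combination against CD40, the S-phase sum of CD8 T cells stood at 0.22 and -0.10, the S-phase sum of Treg cells at -0.087 and 0.57, and the mitotic sum of monocytes at 0.11 and -0.24. Cells that no gate took held mitotic genes at 2114 CPM in the CD40 library and 2096 CPM in the combination library, above 1625 CPM in control.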

How the results depend on the processing

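The alternatives were run on the mitotic and S-phase sums of the 5 classes in the pairs that set CD40 antibody against none, on the counts of members past 2-fold there and on the shares of cells, and none of these reversed. PD1 antibody pairs and single genes were not rerun. No paired analysis was possible because each group is 1 library. In what follows A is CD40 against control and B is combination against PD1, as log2 ratios of summed genes that left the counting interval of the reported value. With equal weight for every cell, mitotic sums were 0.51 (A) and 0.23 (B) in CD8 T cells, 1.81 (B) in NK cells, 0.35 (B) in Treg cells, 0.54 and 0.36 in monocytes and 0.61 and 0.56 in macrophages; S-phase sums were 0.33 and -0.11 in CD8 T cells, 1.28 and 1.03 in NK cells, -0.41 and -0.0023 in Treg cells and 0.57 and 0.59 in macrophages. With median-ratio scaling, mitotic sums were 0.31 and 0.15 in CD8 T cells, 2.05 and 2.01 in NK cells, 0.51 (B) in Treg cells and 0.55 (A) in macrophages, and S-phase sums -0.16 (B) in CD8 T cells, 1.46 and 1.18 in NK cells and 0.44 (A) in macrophages. With the stricter gate, mitotic sums were 0.21 (B) in CD8 T cells, 2.30 and 1.54 in NK cells, 0.55 (B) in Treg cells, 0.47 and 0.37 in monocytes and 0.63 and 0.62 in macrophages, and S-phase sums 0.12 (A) in CD8 T cells, 0.97 (B) in NK cells, -0.47 (B) in Treg cells, 0.17 (A) in monocytes and 0.48 and 0.64 in macrophages. Without Stmn1, Hmgb2, Dut and Pcna, mitotic sums were 0.26 and 0.14 in CD8 T cells, 2.35 and 2.37 in NK cells, -0.18 (A) in Treg cells, 0.43 and 0.11 in monocytes and 0.58 and 0.51 in macrophages, and S-phase sums 0.25 and -0.037 in CD8 T cells, 1.46 (A) in NK cells, 0.54 (A) in monocytes and 0.51 and 0.51 in macrophages. Keeping doublets gave 0.66 (A) for monocyte mitotic genes, and the 5% mitochondrial limit 0.38 (B) for Treg mitotic genes. The causes of these moves were not tested.

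Of 48 shares of cells, 26 left their interval with 8 UMIs, 11 with the stricter gate and 4 at 2000 UMIs. Over the alternatives the NK mitotic share ranged from 1.31% to 1.70% in control, 17.7% to 23.0% in CD40, 0.898% to 2.26% in PD1 and 13.1% to 15.7% in combination. S-phase shares ranged more widely, from 1.06% to 3.98% for NK cells and 3.87% to 9.26% for macrophages in control, and 14.3% to 21.4% and 7.87% to 16.6% in CD40. Counts of members past 2-fold stayed within 1.5 times. Median-ratio scaling shifted all genes by -0.10 to 0.04. The Treg values of the CD40 and combination libraries are limited by 120 and 144 cells, and their mitotic values by 10 and 21 mitotic cells. The mitotic NK values of control are limited by 6.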
